A study of Mus musculus with 18 samples.

Results

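The macrophage genes described here are 10 of the 54232 genes counted in the lacrimal gland (LG) of male mice. They were chosen by name, with earlier results of these data known. Adgre1 and Csf1r mark macrophages in general. Mrc1, Cd163, Lyve1 and Folr2 are used as markers of resident, scavenging macrophages. Trem2, Tyrobp, Spp1 and Gpnmb are used as markers of lipid-handling or scar-associated macrophages. LGs of the control strain BALB/c (labelled BALB/cJ) and of NOD.H-2b (labelled NOD.B10Sn-H2b/J), a diabetes-resistant NOD line used as a model of Sjögren syndrome, were taken at 2, 4 and 6 months (2M, 4M and 6M). Each of the 6 groups held 3 males, for which the labels name no treatment, and each sample was the RNA of 1 gland of 1 mouse. The strains differ across the genome, so an effect of the disease and an effect of the strain cannot be told apart.

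Macrophages live in most tissues, where they clear dying cells and debris and respond to injury. They depend on signals through the CSF1 receptor, and tissue-resident populations are often recognized by scavenger and endocytic receptors. Macrophages that take up lipid or accumulate in damaged tissue are known to turn on a programme that includes the lipid receptor TREM2, which signals through the adaptor TYROBP. In RNA of whole glands, a gene can be higher because more cells carry it or because each cell holds more of its RNA, and the 2 cannot be told apart.

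The counts per mouse summed to between 49480781 and 103936830. In NOD.H-2b, marker genes of other immune cells were higher as well. The summed CPM (counts scaled to the TMM-normalized library total of each mouse) of 7 T cell markers ranged from 0.141 to 3.94 in BALB/c and from 6.47 to 83.1 in NOD.H-2b, and those of 6 B cell markers from 0.123 to 1.91 and from 0.788 to 352. The summed CPM of 10 epithelial markers were between 850 and 967 in BALB/c, and their median in NOD.H-2b went from 1060 (2M) to 837 (4M) and 652 (6M). The part of these shifts in the values below was not tested. BALB/c 4M replicate 3 stood apart in its group, with 557 Adgre1 counts against 236 and 238, 206 Gpnmb counts against 35 and 49, and a T cell marker sum of 3.94 CPM against 0.94 and 0.67. Results that turn on this mouse are given with and without it.

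Promoter sequence was at hand for 6 of the 10 genes in the RefSeq promoter table (GRCm38.p6). The 250 bases before the start of 4 of them are shown, because Trem2, Spp1 and Gpnmb were higher in NOD.H-2b while Cd163 became lower. Capitals mark matches, on either strand, to GAGGAA (the core bound by the myeloid factor PU.1) and to TGANTCA, which do not overlap here. TGANTCA is a loose form of the AP-1 motif that allows any base at N.
Trem2, chr17:48346151-48346400, plus strand: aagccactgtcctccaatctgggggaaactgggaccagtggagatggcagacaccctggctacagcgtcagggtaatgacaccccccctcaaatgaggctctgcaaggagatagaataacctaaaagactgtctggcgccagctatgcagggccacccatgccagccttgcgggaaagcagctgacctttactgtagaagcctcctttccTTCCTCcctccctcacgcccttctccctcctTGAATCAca
Spp1, chr5:104434861-104435110, plus strand: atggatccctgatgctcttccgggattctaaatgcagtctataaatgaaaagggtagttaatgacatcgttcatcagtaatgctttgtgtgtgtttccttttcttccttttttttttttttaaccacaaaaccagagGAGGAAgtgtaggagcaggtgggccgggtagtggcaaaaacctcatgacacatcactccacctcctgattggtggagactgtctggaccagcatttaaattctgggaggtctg
Gpnmb, chr6:49036268-49036517, plus strand: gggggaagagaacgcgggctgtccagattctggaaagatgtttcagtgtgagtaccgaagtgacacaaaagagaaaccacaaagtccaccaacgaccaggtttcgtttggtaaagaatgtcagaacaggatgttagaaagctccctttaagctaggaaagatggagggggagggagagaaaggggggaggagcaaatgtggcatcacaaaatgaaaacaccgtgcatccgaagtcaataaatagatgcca
Cd163, chr6:124304401-124304650, plus strand: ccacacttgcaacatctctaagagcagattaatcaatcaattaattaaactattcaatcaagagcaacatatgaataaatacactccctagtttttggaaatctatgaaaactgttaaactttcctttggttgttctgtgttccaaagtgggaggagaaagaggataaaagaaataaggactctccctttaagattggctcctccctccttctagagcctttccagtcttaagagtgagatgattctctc
GAGGAA occurred in 23.3% of all 32851 promoters of this length, TGANTCA in 6.75% and CACGTG, the E-box bound by the lysosomal factors TFEB and TFE3, in 6.02%. Trem2 held 1 GAGGAA and 1 TGANTCA match, Spp1 held 1 GAGGAA match, Mrc1 (not shown) held 3 GAGGAA matches, and these letters were not found in the windows of Gpnmb, Cd163 and Folr2. CACGTG was found in none of the 6 windows. These matches are a description of the letters only.

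**Figure D1:**
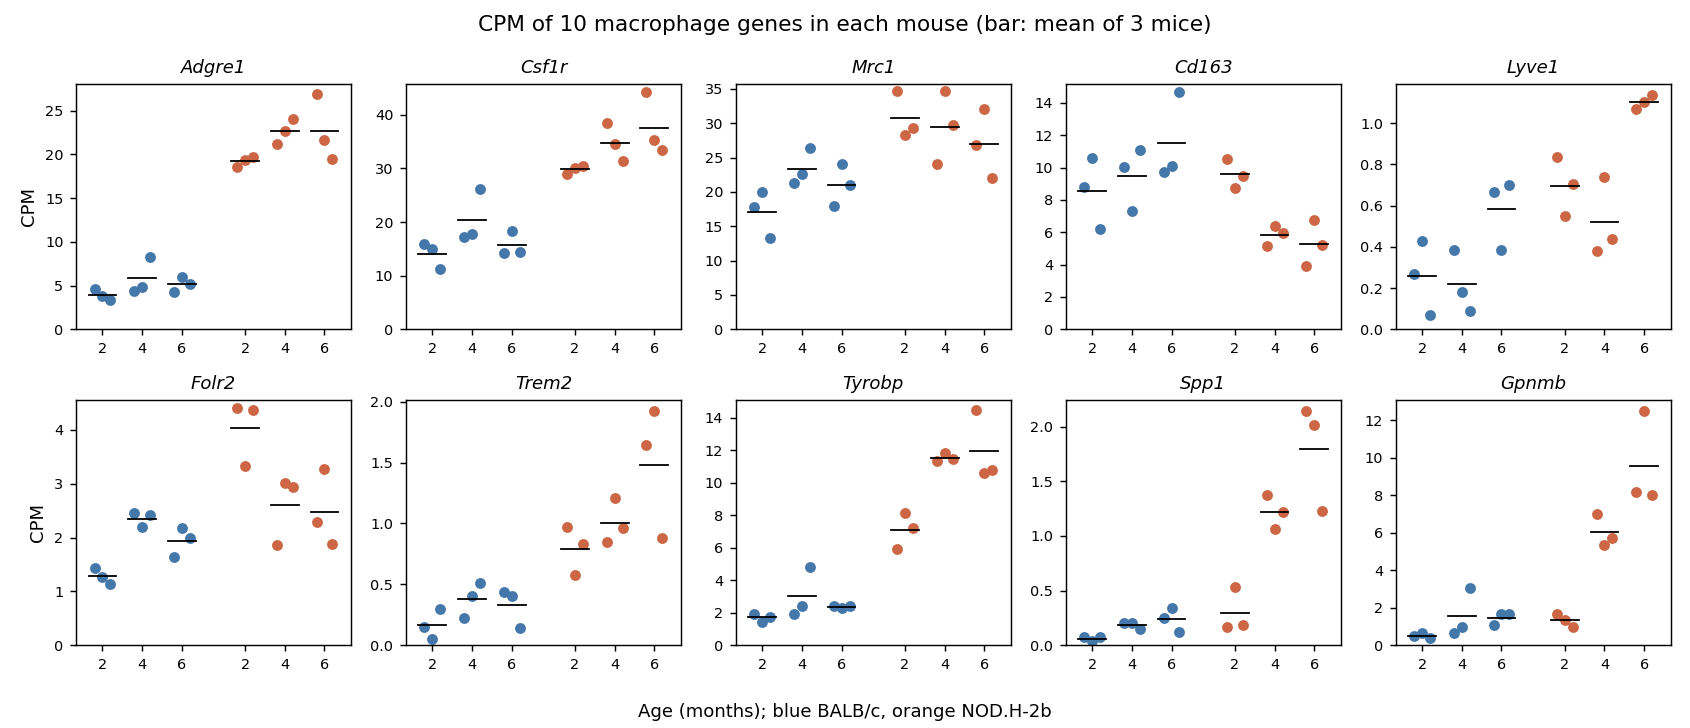
CPM (vertical axis, from 0) of each of the 10 genes in every mouse, by age in months (horizontal axis), with BALB/c in blue and NOD.H-2b in orange; bars are means of 3 mice. All 9 NOD.H-2b mice lie above all 9 BALB/c mice for Adgre1, Csf1r, Trem2 and Tyrobp (as for 11.2% of all genes tested), and Cd163 at 6M lies between 3.93 and 6.79 CPM in NOD.H-2b against 9.73 to 14.7 in BALB/c.

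The general macrophage genes were higher in NOD.H-2b from the first age. Adgre1 (chr17:57358691-57483527, plus strand, GRCm38, GENCODE M21) encodes F4/80, a surface receptor used to identify mouse macrophages. At 2M its CPM was 4.62, 3.8 and 3.30 in the BALB/c mice and 18.6, 19.3 and 19.7 in the NOD.H-2b mice. At 4M it was 4.35, 4.83 and 8.30 against 21.2, 22.7 and 24.1, and at 6M 4.31, 5.98 and 5.21 against 26.9, 21.7 and 19.5. The strains did not overlap at any age. All NOD.H-2b mice lay above all BALB/c mice for 25.3% of all genes tested at 2M, 28.4% at 4M and 31.3% at 6M. Absence of overlap at a single age, here and for the genes below, was thus common among all genes. Adgre1 was 5.07-fold higher at 2M (log2 fold change 2.34, SE 0.112, adjusted p = 4.04e-08), 3.88-fold at 4M (adjusted p = 0.000821) and 4.53-fold at 6M (adjusted p = 2.76e-06; edgeR quasi-likelihood test with Benjamini-Hochberg adjustment).

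Csf1r (chr18:61100598-61132149, plus strand) encodes the receptor for CSF1 and IL34, which sustains macrophages. Its CPM at 2M was 15.9, 15.0 and 11.3 in BALB/c and 28.9, 30.1 and 30.5 in NOD.H-2b. It was 17.1, 17.7 and 26.2 against 38.5, 34.5 and 31.5 at 4M, and 14.2, 18.3 and 14.3 against 44.2, 35.2 and 33.4 at 6M. The mice of the 2 strains did not overlap here either, but the difference was smaller than that of Adgre1, at 2.19-fold at 2M (log2 1.13, SE 0.115, adjusted p = 6.48e-05) and 2.47-fold at 6M (log2 1.30, SE 0.134, adjusted p = 3.95e-05). At 4M Csf1r was 1.72-fold higher (adjusted p = 0.0086), under the 2-fold limit, and without BALB/c 4M replicate 3 its log2 fold change was 1.00 (adjusted p = 0.000119), just past it. Csf1r is overlapped by Mir6983 on the same strand and by Hmgxb3 on the other. The overlap with Hmgxb3 could affect its reads, since the strand setting of the counting was not given in the sources used here. The overlap with Mir6983 could affect them at any strand setting.

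A gene was called when its adjusted p was under 0.05 and it differed at least 2-fold, and all 10 genes had enough counts to be tested between strains. By this rule 8 of the 10 genes were higher at 2M, beside 12% of the 17200 genes tested (3.76% were lower). Of the 8, Spp1, Trem2 and Lyve1 had too few counts in the BALB/c mice alone. They were tested through their NOD.H-2b counts, which favours a higher call. At 4M 5 were higher, beside 15.6% of genes (4.72% lower). At 6M 6 were higher and Cd163 was lower, beside 18.8% higher and 6.03% lower. The median log2 fold change of the 10 genes was 1.59, 1.33 and 1.73 at the 3 ages, and that of all genes tested 0.01, 0 and -0.004. Averaged over the ages, in a fit that shares these mice, 7 were called higher beside 17.6% higher and 5.19% lower of all genes. Mrc1 (log2 0.52), Folr2 (0.72) and Cd163 (-0.55) passed the adjusted p without reaching 2-fold. The adjusted p alone was passed by 65.5% of all genes tested in this fit.

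**Figure D2:**
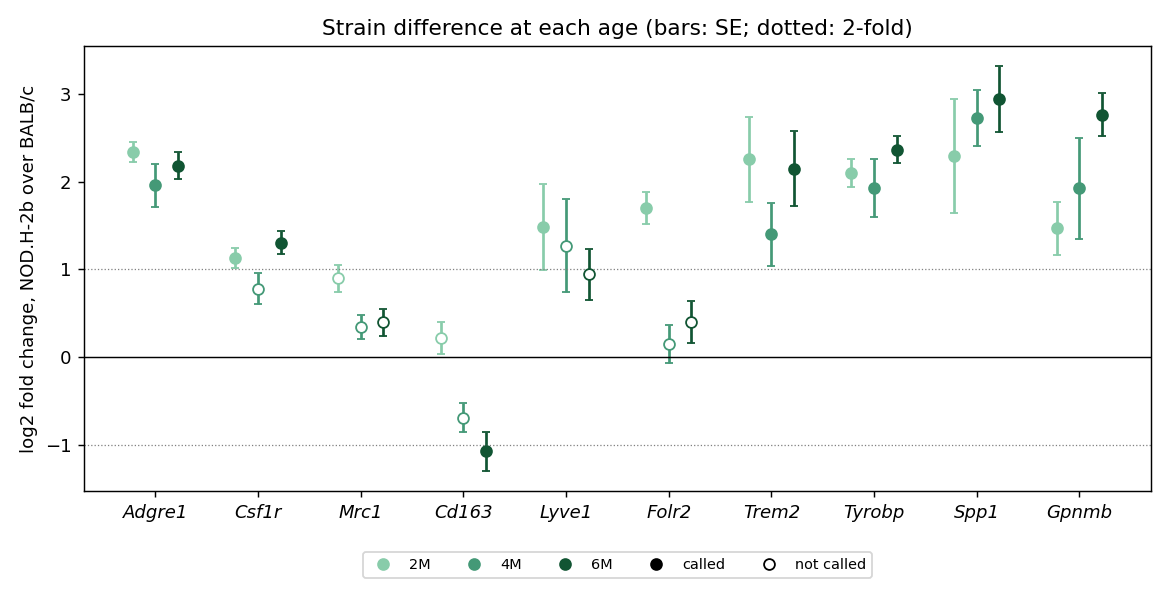
Log2 fold change of NOD.H-2b over BALB/c (vertical axis) for each gene at 2M, 4M and 6M, with SE bars; filled points were called (adjusted p under 0.05 and at least 2-fold, dotted lines) and open points were not. Cd163 runs from 0.21 at 2M to -1.08 at 6M, while Gpnmb runs from 1.47 to 2.77.

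The 4 genes of resident macrophages did not follow one pattern. Mrc1 (chr2:14229392-14332057, plus strand, overlapped by Mir511 on the same strand) encodes the mannose receptor CD206, an endocytic receptor. At 2M it was 17.8, 20.01 and 13.2 CPM in BALB/c and 34.7, 28.3 and 29.4 in NOD.H-2b, with no overlap, and was 1.86-fold higher (log2 0.90, SE 0.156, adjusted p = 0.00377), under the 2-fold limit. At 4M and 6M the strains overlapped, with log2 fold changes of 0.34 (adjusted p = 0.0779) and 0.40 (adjusted p = 0.0541; edgeR quasi-likelihood test with Benjamini-Hochberg adjustment).

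Cd163 (chr6:124304656-124330527, plus strand) encodes the scavenger receptor for haptoglobin-hemoglobin complexes. At 2M the strains overlapped, at 8.81, 10.6 and 6.19 CPM in BALB/c and 10.6, 8.75 and 9.49 in NOD.H-2b (log2 0.21, SE 0.182, adjusted p = 0.405). At 4M the values were 10.1, 7.29 and 11.1 against 5.16, 6.39 and 5.99 CPM, so that all NOD.H-2b mice lay below all BALB/c mice. The log2 fold change at 4M was -0.70 (SE 0.166, adjusted p = 0.00718), under 2-fold. At 6M the values were 9.73, 10.1 and 14.7 against 3.93, 6.79 and 5.19 CPM, again with no overlap, and Cd163 was 2.11-fold lower (log2 -1.08, SE 0.225, adjusted p = 0.00351). Such separation below BALB/c was seen for 27% of all genes tested at 4M and 33.4% at 6M. Without BALB/c 6M replicate 3 the value was -0.88 (adjusted p = 0.00873) and without NOD.H-2b 6M replicate 1 -0.89 (adjusted p = 0.00898), both under 2-fold. From 2M to 6M the strain difference of Cd163 moved by -1.29 on the log2 scale (SE 0.319, adjusted p = 0.0151; edgeR quasi-likelihood test with Benjamini-Hochberg adjustment over all 18 mice).

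Folr2 (chr7:101839988-101857194, minus strand) encodes folate receptor beta. It was 1.43, 1.27 and 1.13 CPM in BALB/c and 4.40, 3.33 and 4.37 in NOD.H-2b at 2M, a 3.25-fold difference (log2 1.70, SE 0.181, adjusted p = 2.42e-05) with no overlap. At 4M it was 2.45, 2.19 and 2.42 against 1.86, 3.01 and 2.94 CPM, and at 6M 1.63, 2.17 and 1.99 against 2.29, 3.27 and 1.88, and the strains overlapped at both ages. The log2 fold change was 0.15 at 4M (adjusted p = 0.624) and 0.40 at 6M (adjusted p = 0.18). The change of the strain difference was -1.51 from 2M to 4M (SE 0.309, adjusted p = 0.0198) and -1.29 from 2M to 6M (SE 0.310, adjusted p = 0.0108), and both use the same 2M mice. The first of them had an adjusted p of 0.0577 without NOD.H-2b 2M replicate 1 and 0.0544 without NOD.H-2b 2M replicate 3. Folr2 overlaps Gm10602 and Gm45319 on the other strand.

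Of the 10 genes, Folr2 alone passed for strain by age from 2M to 4M, beside 1.67% of 19117 genes, and Folr2 and Cd163 passed from 2M to 6M, beside 16.1% (edgeR quasi-likelihood test with Benjamini-Hochberg adjustment, adjusted p under 0.05). Gpnmb had the largest opposite value from 2M to 6M (1.29, SE 0.654) with an adjusted p of 0.195, which was 0.032 without BALB/c 4M replicate 3 and 0.0351 in a fit of the 12 mice of 2M and 6M.

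Lyve1 (chr7:110850607-110863239, minus strand) encodes a hyaluronan receptor carried by lymphatic endothelium and by some macrophages. It was among the lowest of the 10, with 4 to 62 counts per BALB/c mouse and 22 to 82 per NOD.H-2b mouse. At 2M its CPM was 0.267, 0.431 and 0.0705 in BALB/c and 0.838, 0.548 and 0.707 in NOD.H-2b, with no overlap (log2 1.48, SE 0.490, adjusted p = 0.0325). This call was lost without any 1 of 4 of the 6 mice, at adjusted p between 0.0735 and 0.0945. At 4M the strains overlapped (log2 1.27, adjusted p = 0.0818), and at 6M the values were 0.665, 0.383 and 0.701 against 1.07, 1.10 and 1.14 CPM, a 1.92-fold difference (adjusted p = 0.0186; edgeR quasi-likelihood test with Benjamini-Hochberg adjustment). The summed CPM of 8 markers of lymphatic endothelium was lower in NOD.H-2b, at 22 to 31.3 against 32 to 45.6 in BALB/c, and up to 4 of the 8 were at 0 in a BALB/c mouse. Reln made up much of that sum, at a mean of 23.3 CPM over all mice, and was the gene called lower (at 4M and 6M) of the 4 tested. The other genes tested, Flt4, Pdpn and Sema3d, were not called at any age, and at 6M their log2 fold changes were 0.47, 0.24 and 0.23. The part of these cells in the Lyve1 values was not tested.

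The genes of lipid-handling macrophages were higher in NOD.H-2b at every age. Tyrobp (chr7:30413760-30417585, plus strand) encodes DAP12, the adaptor through which TREM2 and other receptors signal. Its CPM was 1.89, 1.45 and 1.76 in BALB/c and 5.90, 8.13 and 7.20 in NOD.H-2b at 2M. It was 1.90, 2.40 and 4.79 against 11.3, 11.8 and 11.4 at 4M, and 2.44, 2.26 and 2.41 against 14.5, 10.6 and 10.8 at 6M. The strains did not overlap, and Tyrobp was 4.28-fold higher at 2M (log2 2.10, SE 0.162, adjusted p = 2.11e-06), 3.79-fold at 4M (adjusted p = 0.00372) and 5.16-fold at 6M (adjusted p = 1.19e-06). Natural killer cells and neutrophils also express Tyrobp. The summed CPM of 7 natural killer cell markers was 0.123 to 3.1 in BALB/c and 4.45 to 13.2 in NOD.H-2b, and that of 8 neutrophil markers 0.439 to 1.65 and 1.89 to 6.87, with up to 7 of the 8 at 0 in a BALB/c mouse and up to 5 in a NOD.H-2b mouse. That of 8 dendritic cell markers was 5.64 to 13 and 13.9 to 57.4. Their part in the Tyrobp values was not tested.

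Trem2 (chr17:48346401-48354147, plus strand), the lipid-sensing receptor that pairs with this adaptor, had few reads, with 3 to 41 counts per BALB/c mouse and 38 to 126 per NOD.H-2b mouse. Its CPM was 0.153, 0.0538 and 0.300 against 0.969, 0.578 and 0.833 at 2M. It was 0.221, 0.406 and 0.507 against 0.847, 1.21 and 0.961 at 4M, and 0.440, 0.405 and 0.140 against 1.65, 1.92 and 0.876 at 6M. The strains did not overlap at any age, and the log2 fold change was 2.25 (SE 0.484, adjusted p = 0.0031), 1.40 (SE 0.359, adjusted p = 0.0105) and 2.15 (SE 0.427, adjusted p = 0.00197; edgeR quasi-likelihood test with Benjamini-Hochberg adjustment).

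Spp1 (chr5:104435118-104441050, plus strand) encodes osteopontin, a secreted ligand of CD44 and integrins that epithelium can also make. It had the fewest reads in BALB/c at 2M, at 4, 2 and 4 counts against 10, 35 and 12 in NOD.H-2b. At 4M there were 11, 10 and 10 counts against 91, 69 and 61, and at 6M 23, 16 and 5 against 164, 115 and 70. In CPM all NOD.H-2b mice lay above all BALB/c mice of their age, with log2 fold changes of 2.29 (SE 0.649, adjusted p = 0.0149), 2.73 (SE 0.322, adjusted p = 0.000136) and 2.94 (SE 0.378, adjusted p = 0.000122). At 2M the call was lost without BALB/c 2M replicate 2 (adjusted p = 0.0653) or without NOD.H-2b 2M replicate 2 (adjusted p = 0.098). Gm42793 overlaps Spp1 on the same strand.

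Gpnmb (chr6:49036546-49070929, plus strand) encodes a glycoprotein of lysosomes and melanosomes that lipid-laden macrophages express strongly. Its CPM at 2M was 0.497, 0.628 and 0.370 in BALB/c and 1.68, 1.37 and 0.990 in NOD.H-2b. It was 0.645, 0.995 and 3.07 against 7.02, 5.36 and 5.74 at 4M, and 1.05, 1.68 and 1.68 against 8.20, 12.5 and 8.01 at 6M. The strains did not overlap, and the log2 fold change was 1.47 at 2M (SE 0.304, adjusted p = 0.00249), 1.92 at 4M (SE 0.577, adjusted p = 0.0431) and 2.77 at 6M (SE 0.249, adjusted p = 1.78e-05; edgeR quasi-likelihood test with Benjamini-Hochberg adjustment). The call at 4M was close to the limit. Without BALB/c 4M replicate 3 it was 2.88 (adjusted p = 3.28e-05), and without any other mouse of the comparison its adjusted p was between 0.0521 and 0.135. The summed CPM of 6 melanocyte markers, which could carry Gpnmb, was 7.89 to 10.5 in BALB/c and 6.21 to 9.85 in NOD.H-2b. Sox10, at a mean of 7.86 CPM over all mice, made up most of this sum, 2 of the 6 markers had enough counts to be tested, and up to 4 were at 0 in a mouse.

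With age, Spp1 and Gpnmb were the members called in NOD.H-2b mice. From 2M to 4M Gpnmb rose by 2.17 (SE 0.214, adjusted p = 0.00216) and Spp1 by 2.03 (SE 0.437, adjusted p = 0.0198) on the log2 scale, beside 6.6% of genes called in either direction. With the replicate number as a block, the value of Spp1 was 2.16 with an adjusted p of 0.0789. From 2M to 6M Gpnmb rose by 2.82 (SE 0.247, adjusted p = 0.000602) and Spp1 by 2.57 (SE 0.447, adjusted p = 0.00352), beside 12.5%. Over the same interval Cd163 (-0.88, adjusted p = 0.00831), Folr2 (-0.72, adjusted p = 0.028), Tyrobp (0.74, adjusted p = 0.00799) and Csf1r (0.32, adjusted p = 0.0365) passed the adjusted p without reaching 2-fold. The adjusted p alone was passed by 40% of all genes tested from 2M to 6M. From 4M to 6M 0 of the 10 were called by edgeR in NOD.H-2b, beside 0.00555% of genes. At an unadjusted p under 0.05 there were 2 members in that interval, beside 2490 of 18026 genes, and DESeq2 also called 0 members.

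In BALB/c 1 member was called with age: Gpnmb rose by 1.54 from 2M to 6M (SE 0.302, adjusted p = 0.0136), beside 1.68% of genes, and this was lost without BALB/c 2M replicate 1 (0.058), BALB/c 2M replicate 3 (0.0681) or BALB/c 6M replicate 2 (0.0616), each value being an adjusted p by the edgeR quasi-likelihood test with Benjamini-Hochberg adjustment. From 2M to 4M 0 of 9 members tested were called by edgeR (2.37% of genes), and 1 was called by DESeq2. At an unadjusted p under 0.05 there were 4 members, beside 4416 of 16639 genes. Folr2 was 0.89 higher on the log2 scale in that interval (adjusted p = 0.0109), under 2-fold. From 4M to 6M 0 of 10 were called by edgeR (0.0361%) and 0 by DESeq2. At an unadjusted p under 0.05 there was 1 member, beside 2583 of 16622 genes. Spp1 had too few counts to be tested in the intervals from 2M.

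**Figure D3:**
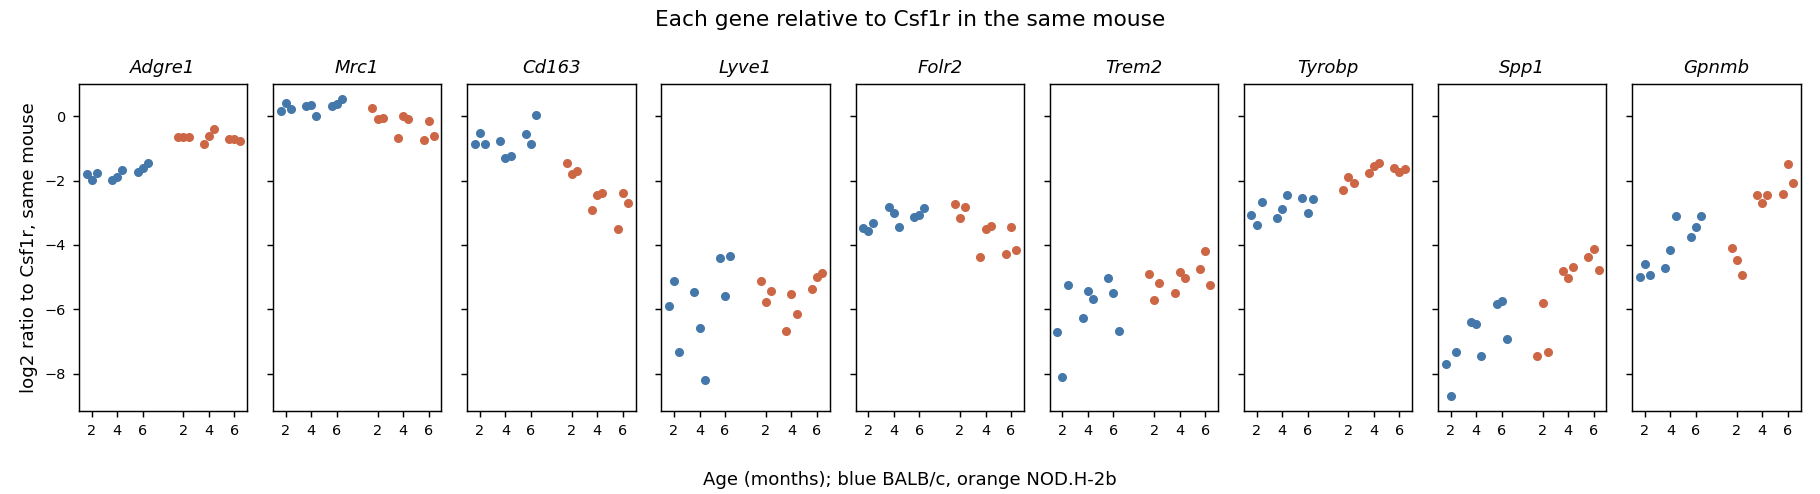
Log2 ratio of each gene to Csf1r in the same mouse (vertical axis), by age in months (horizontal axis), for BALB/c (blue) and NOD.H-2b (orange), 1 point per mouse. Adgre1 and Tyrobp lie higher, and Cd163 lower, in all NOD.H-2b mice than in all BALB/c mice. The share of all genes that do so was not computed.

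Relative to Csf1r in the same mouse, the 10 genes did not keep their proportions. The mean log2 ratio of Cd163 to Csf1r was -0.76 (SD 0.398, n = 9) in BALB/c and -2.35 (SD 0.642, n = 9) in NOD.H-2b, a difference of -1.59 with no overlap of mice. The ratio of Adgre1 was 1.10 higher in NOD.H-2b and that of Tyrobp 1.08 higher, also with no overlap. Mice overlapped for Mrc1 (-0.54), Folr2 (-0.36), Lyve1 (0.34), Trem2 (1.03), Spp1 (1.58) and Gpnmb (1.08). These means pool ages that differed: relative to Csf1r, Folr2 was at 0.55, -0.68 and -0.94 at 2M, 4M and 6M, Lyve1 at 0.67, 0.63 and -0.30, and Gpnmb at 0.33, 1.46 and 1.44. These are descriptions with no test, and the reference gene sets them: relative to Adgre1, a reference chosen after seeing the data, the means were -0.01 for Tyrobp, -0.07 for Trem2 and -0.02 for Gpnmb, while Cd163 differed by -2.69, Mrc1 by -1.64 and Folr2 by -1.45 with no overlap. Relative to the mean of 20 general macrophage genes, Cd163 differed by -2.68, Mrc1 by -1.63 and Csf1r by -1.09 with no overlap, and Folr2 by -1.45 with overlap. By the same reference Tyrobp (-0.009), Trem2 (-0.06), Gpnmb (-0.017), Adgre1 (0.006), Spp1 (0.48) and Lyve1 (-0.76) also overlapped. Of these, Gpnmb was at -0.73, 0.36 and 0.31 at the 3 ages. The means relative to Adgre1 pooled ages of opposite sign: Gpnmb was at -0.88, 0.24 and 0.57 at the 3 ages, Trem2 at 0.21, -0.54 and 0.13, and Tyrobp at -0.26, 0.03 and 0.19. All 3 references were themselves higher in NOD.H-2b, so a lower ratio does not show that a gene was lower: at 2M the ratio of Cd163 to Csf1r differed by -0.9 while Cd163 itself overlapped between strains. Adgre1 was itself 2.13 higher on the log2 scale averaged over the ages, and Mrc1 (0.52) and Folr2 (0.72) were higher, not lower. The share of all genes whose ratios did not overlap was not computed. Absence of overlap is therefore not shown to be particular to these genes.

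**Figure D4:**
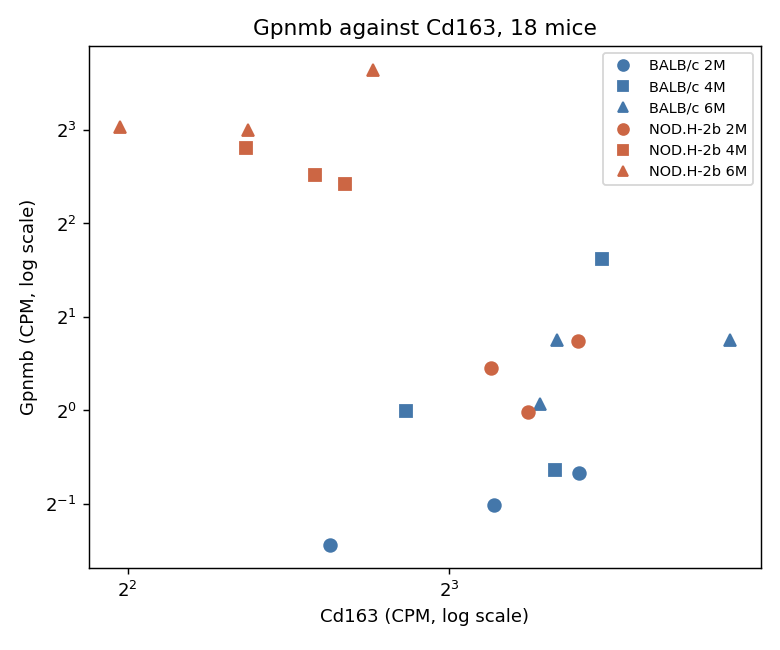
Gpnmb against Cd163 in CPM (both axes log scale) in 18 mice, coloured by strain and shaped by age. The 6 NOD.H-2b mice of 4M and 6M lie at high Gpnmb and low Cd163, and those of 2M lie among the BALB/c mice. Among all pairs of members, this pair differed most over all mice.

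Within a mouse, the mean log2 ratio of Gpnmb to Cd163 was -4.1 in BALB/c at 2M (SD 0.05), -2.9 at 4M (SD 1.05) and -2.97 at 6M (SD 0.34), with 3 mice in each group. In NOD.H-2b it was -2.86 at 2M (SD 0.34), 0.04 at 4M (SD 0.36) and 0.86 at 6M (SD 0.22). All 3 NOD.H-2b mice at 6M (lowest 0.63) had a higher CPM of Gpnmb than of Cd163. The highest BALB/c mouse, 4M replicate 3, was at -1.86, and the other BALB/c 4M mice were at -3.96 and -2.87. Without that mouse the highest BALB/c value was -2.58, in 6M replicate 2. Among all pairs of members, Gpnmb and Cd163 differed most over all mice (root mean square difference of centred log2 CPM, 1.754). The ratio of this pair therefore had to vary widely between mice, and it was not tested.

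Levels can be compared between genes only per length of transcript. In CPM per kb of merged exons, the order of the means at 2M in BALB/c was Mrc1 (2.67, SD 0.541), Tyrobp (2.55, SD 0.337) and Csf1r (2.43, SD 0.422), which did not differ beyond their spread. Cd163 (1.56), Adgre1 (1.21) and Folr2 (0.827) followed, and Lyve1, Gpnmb, Spp1 and Trem2 were all under these. In NOD.H-2b at 2M Tyrobp led (10.6, SD 1.68), followed by Adgre1 (5.93), Csf1r (5.16) and Mrc1 (4.83). At 6M Tyrobp was at 17.9 (SD 3.28) in NOD.H-2b, Gpnmb at 1.47, Spp1 at 1.09 and Cd163 at 0.971, so that the mean of Cd163 was below both of those genes. Per kb of the principal transcript, Gpnmb (2.59) and Cd163 (1.20) kept this order at 6M, while Spp1 (1.19) was level with Cd163. Trem2 depended most on the length used. In NOD.H-2b at 6M it was at 0.300, the lowest mean, per kb of merged exons and at 1.36 (SD 0.499) per kb of the principal transcript. In BALB/c at 2M it was at 0.155 by the latter, beside 0.135 for Gpnmb.

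The genes whose centred log2 CPM over the 18 mice was nearest to each member, by root mean square difference among 11443 genes, differed between members. They were Pik3ap1 (0.18) and Fcer1g (0.182) for Adgre1, Pltp (0.116) and Dse (0.143) for Csf1r, and Fcer1g (0.181) and C1qc (0.182) for Tyrobp. For Mrc1 they were Dab2 (0.149) and Hacd4 (0.188), for Folr2 Clmn (0.182) and Fxyd3 (0.24), and for Cd163 Srxn1 (0.226) and AI463170 (0.25). The distances were larger for Trem2 (Anxa4, 0.438; Scpep1, 0.463), Spp1 (St6gal1 and Sh3kbp1, both 0.388), Gpnmb (St6gal1, 0.532; Cerk, 0.54) and Lyve1 (Gm43071, 0.515; Zfp709, 0.525).

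Other genes of the same biology were counted by hand-written lists, with the rule used for the 10 genes. These lists too were chosen with earlier results of these data known. None of the lists holds a member, and the shares of all genes called are those given above. Of 20 general macrophage genes, 18 were called higher at 2M, 17 at 4M and 18 at 6M (median log2 fold change 2.15, 1.90 and 2.40). Among them were Cd84 (log2 3.26, 3.45 and 4.57 at the 3 ages), Fcgr1, an activating Fc receptor (4.24, 3.00 and 4.00), and Aif1, which encodes IBA1 (2.53, 2.61 and 3.54). In the NOD.H-2b mice Cd84 was 25.8, 15.7 and 14.1 CPM at 4M, beside B cell marker sums of 253, 134 and 114. At 6M it was 35.3, 21.2 and 25.0 CPM beside 352, 181 and 234. The part of B cells in Cd84, which is also in the 20-gene reference used above, was not tested. Of 21 resident macrophage genes tested, 8 were higher and 2 lower at 2M, 5 and 1 at 4M, and 7 and 1 at 6M (median 0.76, -0.08 and 0.59). The chemokine Ccl8 was higher (3.37, 2.85 and 3.23), as was Timd4, a receptor for dying cells (2.08, 1.67 and 2.41), and the eosinophil-attracting chemokine Ccl24 was lower (-1.87, -2.61 and -4.40). Ccl24 was the gene of this list called lower at all 3 ages, with a mean of 0.828 CPM in BALB/c mice at 6M against 0.0364 CPM in NOD.H-2b mice.

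Of the lipid-associated macrophage genes, 7 of 21 tested were higher at 2M, 8 of 24 at 4M and 14 of 23 at 6M (median log2 fold change 0.76, 0.92 and 1.16). Itgax, which encodes CD11c and is shared with dendritic cells, differed by 3.39, 2.47 and 3.37 on the log2 scale, Fabp5, a fatty acid carrier, by 2.71, 2.60 and 3.27, and Clec7a, the beta-glucan receptor dectin-1, by 2.65, 2.36 and 3.05. Of the inflammatory monocyte and macrophage genes, 16 of 18 tested were higher at 2M, 16 of 20 at 4M and 15 of 19 at 6M (median 3.36, 2.78 and 3.25). Among them were Il1rn, the interleukin-1 receptor antagonist (6.55, 5.87 and 6.75), and the interferon-induced chemokines Cxcl9 (6.89, 4.68 and 6.30) and Cxcl10 (5.90, 4.77 and 6.03). Of the 24 genes listed, 8 had enough counts to be tested within BALB/c from 2M to 4M. Many were thus tested between strains through their NOD.H-2b counts, which favours a higher call. These counts of genes called higher were therefore partly set by the filter on low counts.

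Upstream of CSF1R, the ligand Csf1 was 11.4 ± 1.5 CPM in BALB/c against 15.8 ± 0.714 in NOD.H-2b at 2M (SD, 3 mice each), and its log2 fold change was 0.51, 0.34 and 0.60 at the 3 ages (adjusted p = 0.00149, 0.00687 and 0.00149), under 2-fold. The second ligand, Il34, differed by 0.01, -0.36 and 0.26 (adjusted p = 0.948, 0.209 and 0.261; edgeR quasi-likelihood test with Benjamini-Hochberg adjustment). Of the list of CSF1R ligands and lineage factors, 7 of 20 tested were higher at 2M, 11 of 21 at 4M and 12 of 21 at 6M (median 0.46, 1.12 and 1.58), with Ikzf1 (3.09, 3.77 and 4.12), Csf2rb (2.23, 2.75 and 3.14) and Irf5 (2.14, 2.66 and 3.30) called at every age. Ikzf1 is also a lymphocyte factor. Of the partners and signalling genes of TYROBP, 15 of 22 were higher at 2M, 21 of 24 at 4M and 22 of 24 at 6M (median 1.96, 2.29 and 2.90). The adaptor Lcp2 (3.69, 3.12 and 4.06) and the kinase Btk (2.58, 3.63 and 4.15), which lymphocytes also use, were among them, as was Sirpb1b (4.67, 4.15 and 4.73), whose reads may be shared with close paralogs.

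Of the ligands and receptors of the 10 proteins, 6 of 21 tested were higher and 2 lower at 2M, 7 and 2 at 4M, and 6 and 1 at 6M (median log2 fold change 0.23, 0.19 and 0.10). Cd44, a receptor for osteopontin that lymphocytes also carry, was 1.79 ± 0.337 CPM in BALB/c against 12.2 ± 3.77 in NOD.H-2b at 2M (SD, 3 mice each), and 3.99 ± 0.777 and 32.2 ± 4.59 at 6M, with log2 fold changes of 2.82, 2.68 and 3.06. Itga4, an integrin subunit that binds osteopontin, differed by 2.79, 3.08 and 4.05, and Stab2, a hyaluronan receptor, by 2.21, 2.78 and 2.79. Hp, which encodes haptoglobin, whose complexes CD163 binds, was 455 ± 7.88 and 416 ± 32.2 CPM at 2M and 498 ± 80.8 and 244 ± 17.6 CPM at 6M. The log2 fold change of Hp was -0.09, -0.56 and -0.99 (adjusted p = 0.254, 0.00107 and 8.83e-05; edgeR quasi-likelihood test with Benjamini-Hochberg adjustment), at each age under 2-fold.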

How the data were processed

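Ribosome-depleted RNA of 1 LG per mouse (18 males) was sequenced. The authors used cutadapt for trimming, STAR for alignment to GRCm38 and HTSeq for counts per gene (versions not given in the sources used here), and the raw counts were used as deposited. A second deposited table of normalized values was not used. Gene symbols and lengths came from GENCODE M21, which held 54079 of 54232 genes. The counts per mouse and the 3 mice of a group set the precision.

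With R 4.3.3 and edgeR 4.0.16, counts were filtered (filterByExpr), TMM-normalized and tested with the robust quasi-likelihood test and Benjamini-Hochberg adjustment over all genes tested. Strains at each age and ages within a strain were fitted on the 6 mice concerned, and the average and strain by age on all 18. The SE is the absolute log2 fold change divided by the square root of F. Calls needed an adjusted p under 0.05 and 2-fold (for strain by age, the adjusted p only). Alternatives included DESeq2 1.42.0, other normalizations and filters, a replicate block and each mouse left out. Between strains at the same age, deviations from the group mean of same-numbered mice correlated between -0.0616 and 0.124. Those of other mice correlated between -0.172 and 0.199, so the numbers showed no pairing of the strains within an age. Mice of different ages were not compared in this way. Pairs of replicates differed by a chi-square per gene of 17.7 to 91.1, above counting noise.

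The test was run on simulated counts with known changes. Strains at 2M, strains at 6M and strain by age from 2M to 6M were simulated. Every called change had the right direction, and fold changes were unbiased in these draws. Few genes were changed in a draw, as many up as down, while in the data more genes were called higher than lower in NOD.H-2b. The draws therefore cannot show that fold changes are unbiased in such a case. The 6-mouse comparisons called more unchanged genes than the nominal rate in every draw, and far more in the worst draw, so calls with an adjusted p near 0.05 are less firm, and the strain by age test missed more of the changed genes than they did.

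The members and lists were chosen with earlier results of these data known. Other genes named are, per list, the 3 with the largest mean log2 fold change called in one direction at all 3 ages, Csf1, Il34, Hp and Cd44, the most abundant gene of a marker list, the 2 genes nearest to each member, and Tfe3, Flt4, Pdpn and Sema3d, chosen after their values were seen. 1 gene of the lists is not reported here.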

Additional observations from a re-analysis of the deposited data

Results flagged for a closer look

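The strain difference of Folr2 differed between ages by the test of the difference itself: it moved by -1.51 on the log2 scale from 2M to 4M and by -1.29 from 2M to 6M. That of Cd163 moved by -1.29 from 2M to 6M. Of all 19117 genes tested, 1.67% passed from 2M to 4M and 16.1% from 2M to 6M. From 2M to 6M 2 of the 10 genes passed, which is close to the share of all genes. The Folr2 result from 2M to 4M was lost without NOD.H-2b 2M replicate 1, and also without another mouse of that group, as given above. The 2 ages compared with 2M share the 2M mice, so the values of Folr2 are not independent of each other.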

How the results depend on the processing

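Counts of members called were recomputed under each alternative. Requiring at least 10 counts in every sample left 5 members in place of 8 at 2M and 4 in place of 7 on average, since low genes are no longer tested. Without the fold limit, 1 member passed in BALB/c from 2M to 4M (in place of 0), beside 11.1% of all genes. In NOD.H-2b mice 4 passed from 2M to 4M, beside 15.8%, and 6 from 2M to 6M, beside 40% (each in place of 2). From 2M to 4M in BALB/c, DESeq2 and no filter each gave 1 member in place of 0, and from 2M to 6M in BALB/c the fit of all 18 mice gave 0 in place of 1; the cause was not tested. The replicate block gave 1 member in place of 2 in NOD.H-2b mice from 2M to 4M, and its calls over all genes there were 157 in place of 1172. Under the block Gpnmb at 4M was no longer called (adjusted p = 0.056), and it changed no other call of a member. Leaving out 1 mouse in turn gave between 6 and 8 members at 2M, 4 and 6 at 4M, 6 and 8 at 6M, 6 and 7 on average, 0 and 1 for strain by age from 2M to 4M, 2 and 3 from 2M to 6M, 0 and 2 with age in BALB/c from 2M to 4M and from 2M to 6M, 1 and 2 in NOD.H-2b mice from 2M to 4M, 2 and 3 from 2M to 6M, and 0 from 4M to 6M in either strain. In the members' comparisons, leaving out 1 mouse moved the calls over all genes to between 290 and 1254 (in place of 1172) in NOD.H-2b mice from 2M to 4M, 0 and 97 (1) from 4M to 6M, 245 and 435 (395), 2 and 27 (6) and 179 and 473 (279) in BALB/c from 2M to 4M, 4M to 6M and 2M to 6M, and 114 and 487 (320) and 1558 and 3608 (3083) for strain by age from 2M to 4M and 2M to 6M. No called member changed its direction under these alternatives. Depth limits Spp1, Trem2 and Lyve1, which had under 100 counts in every BALB/c mouse.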

Other observations

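Tfe3, chosen for mention after its values were seen, went against the direction of most members. It encodes a transcription factor of lysosomal genes and was 61 ± 0.354 CPM in BALB/c against 34.9 ± 0.996 in NOD.H-2b at 2M (SD, 3 mice each) and 53.5 ± 3.92 against 25.5 ± 0.775 at 6M. Its log2 fold change was -0.76 at 2M, under 2-fold, -1.10 at 4M (SE 0.0876, adjusted p = 1.36e-05) and -1.03 at 6M (SE 0.0764, adjusted p = 3.01e-06; edgeR quasi-likelihood test with Benjamini-Hochberg adjustment).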
